A study of Mus musculus with 2 samples.

Results

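The genes described here encode the receptors for serotonin, dopamine, noradrenaline and adrenaline, acetylcholine, histamine and the opioid peptides. They were taken by symbol from the GENCODE M21 gene models and make up 57 of 21938 protein-coding genes. The symbol rule uses no measured value, but it was chosen with earlier results of these data known. The 57 were 14 serotonin (Htr), 5 dopamine (Drd), 9 adrenergic (Adra and Adrb), 5 muscarinic (Chrm) and 16 nicotinic (Chrn) acetylcholine, 4 histamine (Hrh) and 4 opioid (Opr) receptor genes. Accessible DNA was mapped by DNase-seq, which counts the cuts that the nuclease DNase I makes where chromatin is open, in left cerebral cortex of male B6CASTF1/J mice aged 14 days. B6CASTF1/J is a hybrid strain, and the labels named no treatment, transgene or second genotype. There was 1 group of 2 libraries; 3 males were listed for replicate 1 and 1 male for replicate 2. Both labels carried the same donor identifier, so a spread over the 2 libraries may not be a spread between animals. With 2 libraries of 1 group no test was made, and every value below describes these libraries.

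Monoamines, acetylcholine and opioid peptides act in the cortex mainly as neuromodulators. The monoamines and much of the acetylcholine are released by axons of neurons whose cell bodies lie in the brainstem, hypothalamus or basal forebrain, so the cortex supplies the receptors more than the transmitters. Most of these receptors are G protein-coupled: Gs raises cyclic AMP, Gi/o lowers it and opens potassium channels, and Gq/11 releases calcium from internal stores. The nicotinic subunits and the serotonin Htr3 subunits instead assemble into ion channels with a ring of subunits around the pore.

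The receptor promoters were open about as often as those of other genes but were low. A promoter was called open in a library when a DNase I peak lay within 1000 bp of any annotated start of the gene, and its signal was that of the strongest such peak, the authors' cleavage density scaled to sequencing depth. Of the 57 genes, 42 (73.7%) had an open promoter in both libraries, against 66.7% of all protein-coding genes. In replicate 1 alone the count was 46 (68.7% of all genes), and in replicate 2 alone it was 42 (68.1% of all genes). With the authors' stricter peak list 34 were open in both, against 62.2% of all genes. The median signal of the 42 open receptor promoters was 1.03 in replicate 1 and 1.07 in replicate 2 (mean 1.05 ± 0.0329 SD, n = 2), whereas that of the 14628 genes open in both was 3.62 and 4.04. Only 2 of the 42, Chrnb1 and Adra2b, exceeded the median of all genes in replicate 1, and only Chrnb1 did so in replicate 2. In a bulk tissue a low signal from a site open in few cells cannot be told apart from one weakly open in many cells, and accessibility is not a measure of transcription.

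**Figure D1:**
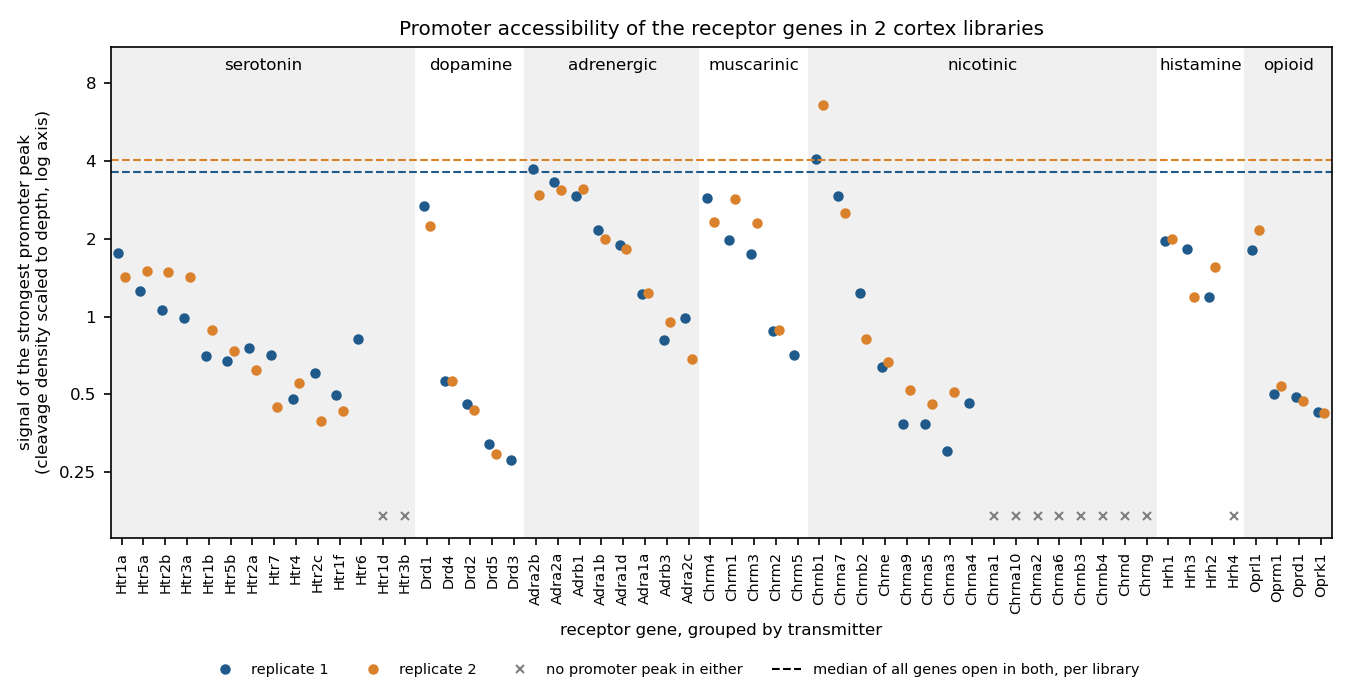
Signal of the strongest promoter peak (log axis) for the receptor genes, 1 point per library, grouped by transmitter and ordered by mean signal. Crosses mark the 11 genes with no promoter peak in either library, and dashed lines mark the median of all genes open in both libraries (3.62 and 4.04), which only Chrnb1 passed in both.

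Marker genes did not separate cortex from its neighbours in these bulk libraries. All 5 excitatory neuron markers had an open promoter in both libraries, with Neurod2, a transcription factor of excitatory neurons, at 2.34 in replicate 1 and 3.76 in replicate 2. All 3 inhibitory neuron markers were open, and so were all 4 striatal markers, whose medians of 2.32 and 2.93 were not below the 1.66 and 2.91 of the excitatory ones. Astrocyte markers were open in 3 of 3 cases, oligodendrocyte markers in 1 of 3, microglial and endothelial markers in 2 of 3 each. Of the thalamic markers Tcf7l2 (1.61 and 2.08) and Rora (1.93 and 2.09) were open and Lhx9 was not. Of the habenular markers Nr4a2 (1.99 and 2.52) and Gpr151 (0.601 and 0.774) were open and Pou4f1 was not. Among markers of midbrain and hindbrain monoamine neurons, Pitx3 (0.990 and 1.19) and Slc6a4 were open in both, Slc6a3 in replicate 1 alone, and Fev in neither. No sequencing depth was given in the sources used here. Signals were whole multiples of a step of 0.00474 in replicate 1 and 0.00614 in replicate 2, and the median peak of a receptor gene stood at 118 and 101.5 steps, which gives a counting error of 9.21% and 9.93% if a step is 1 read.

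All 9 adrenergic receptor genes were open in both libraries, against 66.7% of all protein-coding genes, and they held some of the highest promoters of the set. Their median signal was 2.14 in replicate 1 and 2.00 in replicate 2, and all 9 were also open in the stricter list. With a promoter window of 500 bp 7 of the 9 were open in both libraries, and from the 5′ end alone also 7. Their median CpG count around the start was 72, and of all genes with 51 to 77 CpG sites there 94.2% were open in both libraries. Adra2b, a Gi/o-coupled receptor for noradrenaline, stood at 3.72 and 2.94, but its mean of 3.33 fell to 0.530 with a promoter window of 500 bp, which leaves its strong peak out. Adra2a, the main presynaptic autoreceptor of noradrenergic axons and the target of clonidine, stood at 3.31 and 3.09. Adrb1, the Gs-coupled beta receptor that is common in cortex, stood at 2.93 and 3.12. The order of these 3 changed between the libraries, so they did not differ beyond their spread. Adra1b, Adra1d and Adra1a were lower, at 2.08, 1.86 and 1.23 on average. Adrb3, known from fat tissue, and Adra2c were lowest at 0.883 ± 0.0973 and 0.836 ± 0.210 (SD, n = 2).

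The strongest Adra2b promoter site lay at chr2:127362521-127362700 (mm10), outside any annotated exon. It is shown on the plus strand because it had the highest mean signal among promoter sites of G protein-coupled members, although Adra2a and Adrb1 were higher in replicate 2, and the capitals mark a match to the CTCF core described further on. A run of TG repeats fills its first bases.
Adra2b: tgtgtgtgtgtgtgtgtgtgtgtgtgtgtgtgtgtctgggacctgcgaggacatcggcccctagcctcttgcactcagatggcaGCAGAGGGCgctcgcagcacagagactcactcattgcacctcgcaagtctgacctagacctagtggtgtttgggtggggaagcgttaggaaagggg

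Muscarinic receptor genes were open in both libraries in 4 of 5 cases, against 66.7% of all protein-coding genes. Their median was 1.87 in replicate 1 and 2.31 in replicate 2. Chrm4, the Gi/o-coupled receptor that is abundant in striatum and also present in cortex, stood at 2.87 and 2.32. Chrm1, the main postsynaptic Gq/11-coupled muscarinic receptor of cortical pyramidal cells, stood at 1.98 and 2.86. Chrm3 stood at 1.75 and 2.29. Chrm1 and Chrm3 were higher in replicate 2 and Chrm4 in replicate 1, so the family gave no stable order at the top. With a window of 2500 bp the Chrm1 mean rose from 2.42 to 3.74. The strongest Chrm1 site over 1000 bp from every annotated start had a mean of only 3.30. A peak near a start of another gene thus entered the wider window, and the rise cannot be assigned to Chrm1 alone. Chrm2, an autoreceptor of cholinergic axons, was lower at 0.881 and 0.885, and Chrm5, known from dopamine neurons, had a peak in replicate 1 alone (0.710). Chrm4 and Chrm5 are annotated in GENCODE M21 over their coding parts only, so their windows may not cover every start. RefSeq, whose promoter table matched 43 of the 57 genes, places the Chrm4 start 5060 bp further upstream, and the peak there reached 2.76 and 3.27, so the Chrm4 locus was open at both positions.

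Histamine receptor genes were open in both libraries in 3 of 4 cases, against 66.7% of all protein-coding genes. Hrh1, the Gq/11-coupled receptor that sedating antihistamines block, stood at 1.96 in replicate 1 and 1.99 in replicate 2. Hrh3, the presynaptic autoreceptor, stood at 1.82 and 1.19. Hrh2, coupled to Gs, stood at 1.19 and 1.55. Hrh1 was alike in both libraries, while Hrh2 and Hrh3 changed places. With a window of 500 bp the Hrh1 mean fell from 1.98 to 0.976, below both of the others. Hrh4, a receptor of blood cells, had no promoter peak in either library.

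Dopamine receptor genes were open in both libraries in 4 of 5 cases, against 66.7% of all protein-coding genes. Only the promoter of Drd1 was well above the rest. Drd1, the Gs-coupled D1 receptor, stood at 2.67 in replicate 1 and 2.24 in replicate 2. Drd4, a Gi/o-coupled receptor known from prefrontal cortex, stood at 0.564 and 0.565, from different peaks in the libraries. Drd2, the Gi/o-coupled receptor that antipsychotic drugs block, stood at 0.459 and 0.436. The Drd1 signal was thus above every other dopamine receptor value in each library. Drd5 was at 0.322 and 0.295, and Drd3, known from the ventral striatum, had a peak in replicate 1 alone (0.279).

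Serotonin receptor genes were open in both libraries in 11 of 14 cases, against 66.7% of all protein-coding genes. Their median was only 0.710 in replicate 1 and 0.737 in replicate 2. Htr1a, the Gi/o-coupled receptor on pyramidal cells and on serotonin neurons themselves, stood at 1.76 and 1.42. Htr5a stood at 1.25 and 1.50. Htr2b, known for its role in heart valves, stood at 1.06 and 1.48, and its peak lies inside Psmd1, a proteasome gene. Replicate 1 was higher for Htr1a and replicate 2 for the other two, and their ranges overlapped. With a window of 500 bp the Htr1a mean fell from 1.59 to 0.574, so its place at the top rests on the wider window. Htr3a, the obligatory subunit of the serotonin-gated channel and a marker of a class of cortical interneurons, stood at 0.990 and 1.43. Htr1b, Htr5b, Htr2a, Htr7, Htr4, Htr2c and Htr1f were open with means between 0.464 and 0.795. Htr2a, the receptor through which classical psychedelics act, stood at 0.758 and 0.620. Htr6 had a promoter peak in replicate 1 alone (0.819), and Htr1d and Htr3b had none.

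All 4 opioid receptor genes were open in both libraries, against 66.7% of all protein-coding genes, and 3 of the 4 were at low signal. In the stricter list 3 of the 4 were open in both, against 62.2% of all genes, and from the 5′ end alone also 3. Oprl1, the receptor for nociceptin, stood at 1.80 in replicate 1 and 2.16 in replicate 2, from different peaks. Oprm1, the mu receptor through which morphine acts, stood at 0.502 and 0.541. Oprd1, the delta receptor, stood at 0.488 and 0.473. Oprk1, the kappa receptor for dynorphin, was at 0.426 and 0.424. Oprl1 was more than 3 times as high as any of the others in each library, and the other three differed from each other by little.

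The nicotinic family had the lowest share of open promoters, 7 of 16 in both libraries (3 of 16 in the stricter list). Of all protein-coding genes 66.7% were open in both (62.2% in the stricter list). The strongest promoter of all 57 genes was nevertheless Chrnb1, a subunit of the muscle endplate channel, at 4.06 in replicate 1 and 6.57 in replicate 2. Chrna7, the subunit of the homomeric neuronal channel that alpha-bungarotoxin binds, stood at 2.92 and 2.52. Chrnb2, partner of Chrna4 in the main high-affinity nicotine receptor of the brain, stood at 1.24 and 0.817. These 3 kept their order in both libraries. Chrne, Chrna9, Chrna5 and Chrna3 were open at means of 0.654, 0.453, 0.422 and 0.406, and the Chrne peak also lies at a start of 4930544D05Rik. With a window of 2500 bp the Chrna3 mean rose to 2.06. Chrna4 had a peak in replicate 1 alone (0.464). Chrna1, Chrna2, Chrna6, Chrna10, Chrnb3, Chrnb4, Chrnd and Chrng had none in either library. By class, 4 of 9 neuronal subunits, 2 of 5 muscle subunits and 1 of 2 hair cell subunits were open. Of the skeletal muscle markers, Ckm was open (2.82 and 1.46) and Myog, Myod1 and Acta1 had no promoter peak, so 1 of 4 was open. Their part in the Chrnb1 value was not tested.

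The Chrnb1 site lay at chr11:69795341-69795600 (mm10), mostly in an intron of this minus-strand gene, with its highest coordinates in a coding exon, and held 6 footprints in replicate 1 and 5 in replicate 2. It is shown on the plus strand as the highest promoter site of the set. It holds 3 GC boxes (GGGCGG on either strand), the word bound by Sp1.
Chrnb1: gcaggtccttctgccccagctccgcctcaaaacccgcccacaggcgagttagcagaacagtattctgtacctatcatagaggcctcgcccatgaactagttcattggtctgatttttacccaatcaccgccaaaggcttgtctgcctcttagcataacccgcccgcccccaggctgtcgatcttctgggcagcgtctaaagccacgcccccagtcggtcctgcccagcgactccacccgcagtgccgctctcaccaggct

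Grouped by mode of action, G protein-coupled receptor genes were open more often than channel subunits. Open in both libraries were 8 of 9 genes coupled mainly to Gs, 17 of 20 coupled mainly to Gi/o and 9 of 10 coupled mainly to Gq/11, but 8 of 18 channel subunits. The share over all protein-coding genes was 66.7%. Median signals were 1.00 and 1.25 for Gs, 0.881 and 0.885 for Gi/o, 1.75 and 1.82 for Gq/11, and 0.815 and 0.743 for the channels. The channel subunits also had fewer CpG sites around their starts (median 25, against 42 for Gi/o, 49.5 for Gq/11 and 69 for Gs), and the part of CpG content in this difference was not tested.

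The genes that make, move and read the transmitters differed among themselves in the same libraries. All 9 G protein alpha subunit genes were open, with medians of 3.99 and 4.54, led by Gna11 (9.83 and 13.2) and Gnaz (10.3 and 11.8). All 12 regulators and targets were open (medians 2.47 and 2.91), among them Arrb2, an arrestin that switches receptors off, at 8.09 and 9.72, and Ric3, a chaperone of nicotinic channels, at 4.58 and 4.90. All 6 breakdown enzymes were open, with Ache, which splits acetylcholine, at 4.58 and 5.35 and Maob at only 0.218 and 0.246. By contrast 4 of 8 synthesis genes and 4 of 9 transport genes were open in both. The open synthesis genes were Dbh, which turns dopamine into noradrenaline (2.28 and 3.21), Tph2, the brain enzyme of serotonin synthesis (1.43 and 1.15), Ddc (0.436 and 0.498) and Hdc (0.393 and 0.510). The open transport genes included the serotonin transporter Slc6a4 (0.549 and 0.749) and Slc29a4 (2.13 and 2.12). Th (the first enzyme of dopamine synthesis), Chat (the enzyme that makes acetylcholine), Pnmt, the vesicular transporter Slc18a2, the choline transporter Slc5a7 and the noradrenaline transporter Slc6a2 had no promoter peak in either library. Slc18a1, the vesicular transporter of the adrenal gland, was the highest transport gene at 9.83 and 9.86, from a peak that also lies at a start of the proton pump gene Atp6v1b2. Of the opioid peptide precursors, Penk (0.843 and 0.608) and Pdyn (0.507 and 0.369) were open, and Pomc and Pnoc were not. In all, 37 of these 48 pathway genes were open in both libraries (77.1%), against 66.7% of all protein-coding genes. Median CpG counts around the start were 128 for G proteins, 54 for regulators and targets, and 27 for breakdown enzymes. They were 21 for synthesis, 64 for transport and 30 for opioid peptide precursor genes. Of all genes with 78 to 181 CpG sites there, 97% were open in both libraries, and of those with 17 to 50, 67.6%. The part of CpG content in these counts was not tested.

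Receptor families for the fast transmitters, taken for comparison, were open at like rates. Of the metabotropic glutamate receptor genes 7 of 8 were open, with medians of 1.64 and 1.80. Of the GABA-A receptor subunit genes 13 of 19 were open, with medians of 1.15 and 1.23. The share over all protein-coding genes was 66.7%. Both families therefore also lay below the median of all open genes, 3.62 and 4.04.

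**Figure D2:**
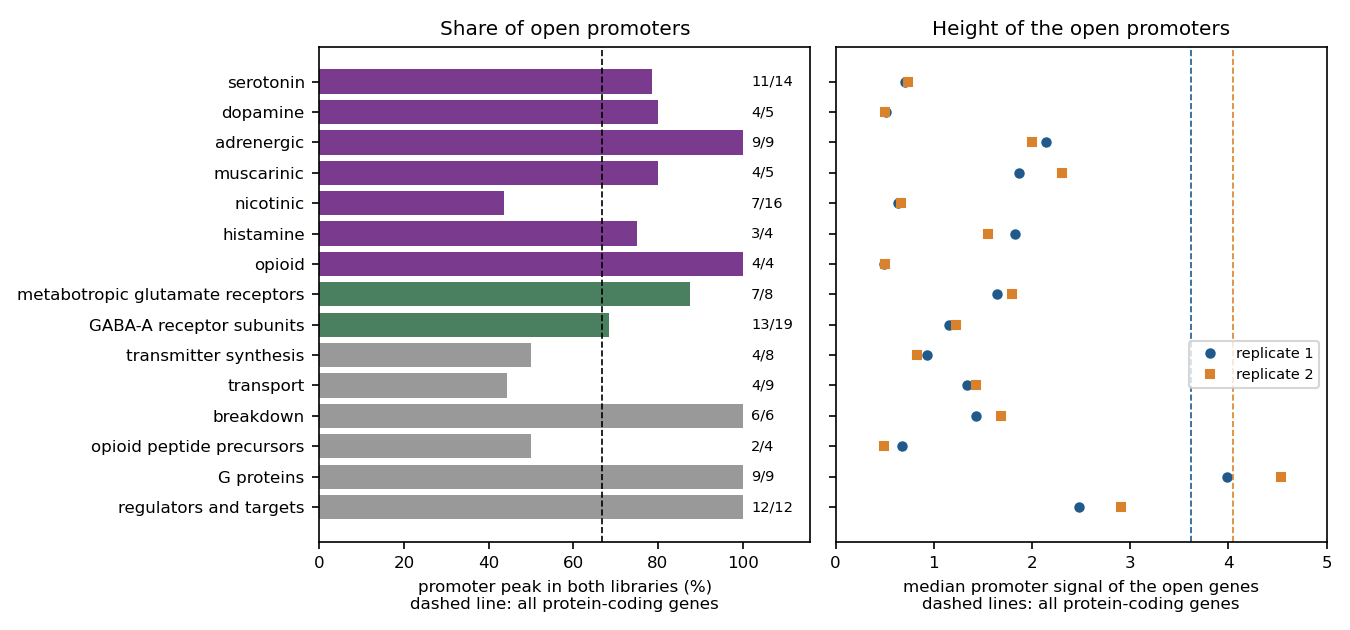
Left, percent of genes with a promoter peak in both libraries for the 7 receptor families (purple), 2 compared receptor families (green) and 6 pathway groups (grey), with counts beside the bars and all protein-coding genes (66.7%) as a dashed line. Right, median signal of the open promoters in each library; only the G proteins (3.99 and 4.54) reached the medians of all genes.

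The receptor promoters were also compared with promoters of like CpG content. CpG-rich promoters are open in most tissues, so all protein-coding genes were split into 4 classes of about equal size by the number of CpG sites within 500 bases of the start. For a gene with several starts the highest count was used, which need not be that of the start with the strongest peak. With 0 to 16 CpG sites, 3 of 12 receptor genes were open in both libraries, against 9.73% of all genes in that class. With 17 to 50, 18 of 21 were open, against 67.6%. With 51 to 77, 12 of 12 were open, against 94.2%, and with 78 to 181, 9 of 12, against 97%. The 3 exceptions in the CpG-richest class were Htr1d, with no promoter peak, and Htr6 and Chrna4, with a peak in replicate 1 alone.

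The height differed more. In the 51 to 77 class the median of the receptor promoters was 1.85 in replicate 1 and 1.99 in replicate 2, and that of all genes 4.42 and 5.10. In the CpG-richest class it was 1.82 and 1.19, against 4.55 and 4.97. In the 17 to 50 class it was 0.848 and 0.777, against 2.10 and 2.39. In the CpG-poorest class alone the 3 open receptor genes, Htr2b, Htr3a and Oprl1, lay above the median of all genes, 1.06 and 1.48 against 0.625 and 0.774. The receptor promoters were thus lower than all genes in both libraries in each of the 3 richer classes.

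**Figure D3:**
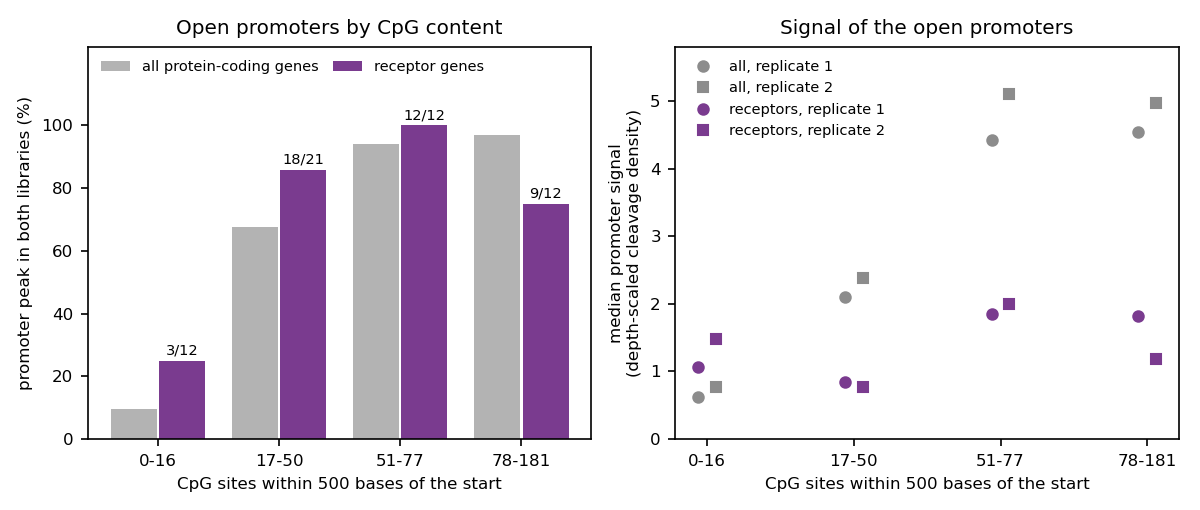
Left, percent of genes with a promoter peak in both libraries by the number of CpG sites around the start, for all protein-coding genes (grey) and receptor genes (purple, counts above the bars). Right, median signal of the open promoters in each library; the receptor medians stayed at or under 2, while those of all genes rose to 4.42 and more in the 2 richer classes.

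Of the 15 genes not open in both libraries, only Chrnb4 passed the authors' false discovery limit in a library where it had no promoter peak. The authors also deposited the stretches in which the local cleavage rate passed a false discovery rate of 0.05. For the 4 genes with a peak in replicate 1 alone the lowest value in the promoter window of replicate 1 was 0.000213 for Chrna4, 0.00216 for Chrm5, 0.0067 for Htr6 and 0.0193 for Drd3, and no stretch was listed there in replicate 2. Of the 11 genes open in neither library only Chrnb4 had such a stretch, at 0.0347 in replicate 1. That is 1 of 11 genes without a promoter peak in replicate 1, against 2.56% of all genes without one, and 0 of 15 in replicate 2, against 2.53%. Chrna1, Chrna2, Chrna6, Chrna10, Chrnb3, Chrnd, Chrng, Htr1d, Htr3b and Hrh4 had none in either library.

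Many receptor genes had a stronger open site away from any start than at their own promoter. Within the gene window, the body with 10 kb added at either end, 34 genes had both an open promoter and a site over 1000 bp from every annotated start in both libraries. In 16 of them (47.1%) the strongest such site was higher than the promoter in both libraries, compared with 24% of 11567 protein-coding genes. The distal sites themselves were not high: their median was 1.24 and 1.25 for the receptor genes and 1.44 and 1.60 for all genes. The 16 were Adra1b, Adra2c, Chrm1, Chrm3, Chrna3, Chrna9, Chrne, Drd2, Hrh2, Htr1b, Htr1f, Htr2a, Htr3a, Htr4, Oprd1 and Oprm1.

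The largest of these gaps were in serotonin, nicotinic and opioid receptor genes. An intronic site of Htr2a, 2711 bp from the start, reached 4.92 in replicate 1 and 3.54 in replicate 2, which is 6.49 and 5.70 times its promoter. A site downstream of Htr1b, 5494 bp from its start, reached 4.59 and 3.60, or 6.51 and 4.07 times the promoter. A site in Chrna9, in an exon annotated neither as coding nor as UTR, reached 2.78 and 2.90, or 7.26 and 5.55 times the promoter. The Chrna9 promoter peak itself was weak (0.384 and 0.522) and lay at an internal start. Chrna9 was not open in both libraries from the 5′ end alone or with a window of 500 bp. An exonic site of Chrna3 reached 2.28 and 1.84, or 7.52 and 3.61 times its promoter. In all of the 16 genes except Chrm1, the distal values of both libraries lay above both promoter values. A site downstream of Htr3a reached 3.97 and 2.52. The intronic site of Oprm1, which also lies inside Ipcef1, reached 1.82 and 3.80 and was higher in replicate 2.

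Genes without an open promoter also had such sites. Of the 11 genes with no promoter peak in either library, 9 had a site away from starts in both, and the exceptions, Chrna6 and Chrna10, had no peak at all in that window. By mean signal the strongest distal site of all 57 genes lay in an intron of Chrna1, the alpha subunit of the muscle channel, at 4.32 in replicate 1 and 4.83 in replicate 2; in replicate 1 the Htr2a and Htr1b sites were higher. Chrnd, another muscle subunit, had a site upstream, inside Prss56, at 2.67 and 2.07. A site upstream of Chrm1, centred at -1738 bp from its start, reached 2.83 and 3.76 and holds 22 CpG sites in its 220 bases.

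**Figure D4:**
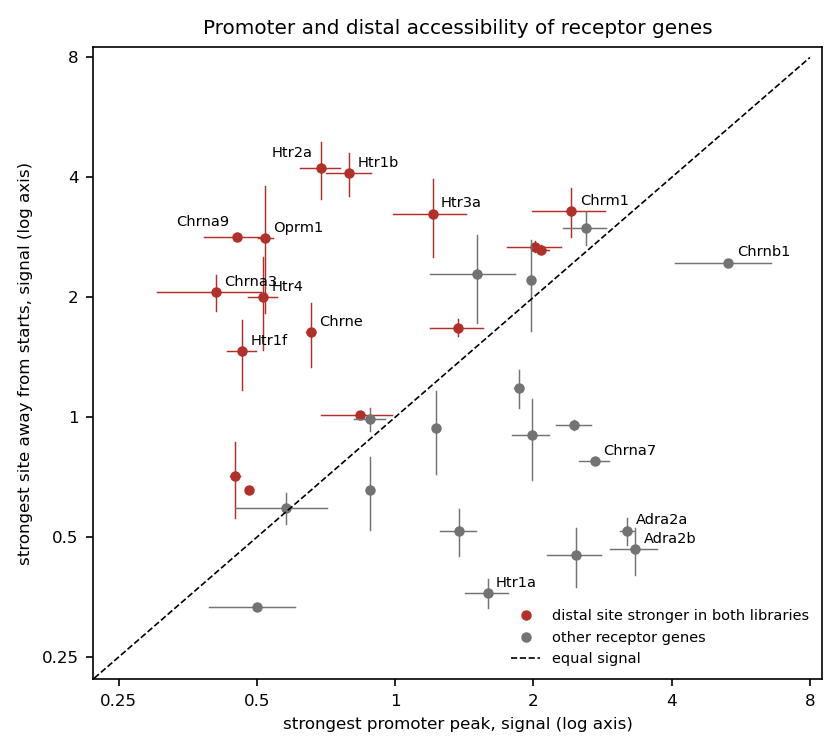
Strongest site away from starts against the strongest promoter peak, both as signal on log axes, for the 34 receptor genes with both kinds of peak in both libraries; points are means and lines span the 2 libraries. The 16 genes in red lie above the dashed line of equal signal in both libraries.

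Most of the distal sites that were strong in both libraries shared a sequence feature. The core of the motif of CTCF, a protein that bounds chromatin loops, was searched on both strands as C or G, C or T, AG, A or G, G or T, GGC, a search added after the sites had been seen. It was present in the 300 bases around the centre of 36 of the 152 receptor gene sites away from starts found in both libraries (23.7%), against 16.6% of all peaks away from starts that were found in both libraries, taken from either library. Among the 10 sites with a signal of at least 2 in both libraries, 9 held it, against 43.1% and 43% of all distal peaks that reached 2 in both libraries, taken from replicate 1 and replicate 2. The 9 belonged to Chrna1, Htr2a, Htr1b, Htr3a, Chrna9, Chrm3, Adra1b, Chrnb1 and Chrnd, and the one without it was the Chrm1 site. The share among 10 sites is coarse and rests on the limit of 2 in both libraries. Receptor gene sites were merged over both libraries before their distance to starts was taken, whereas the comparison used single peaks. The strongest single Chrm4 peaks away from starts, 2.70 in replicate 1 and 3.27 in replicate 2, are not among the 10 sites. The sites that reached 2 in replicate 2 alone all lacked the core. They belonged to Oprm1 (1.82 in replicate 1 and 3.80 in replicate 2, and 1.27 and 2.59), Hrh3 (1.72 and 2.87), Hrh1 (1.64 and 2.79) and Htr4. Of those that reached 2 in replicate 1 alone, Htr3b (2.21 and 1.71) and Drd3 (2.04 and 1.07) lacked it and the others held it. A match shows only that the letters are there. Of the 6 strongest sites, those of Htr3a (chr9:48894201-48894360) and Chrna9 (chr5:65938121-65938320) are named by position. The 4 others are shown because they are the highest sites of the set, on the plus strand of mm10, with the core in capitals: Chrna1 chr2:73572581-73572780 (intron), Htr2a chr14:74643461-74643640 (intron), Htr1b chr9:81627021-81627220 (downstream) and Chrm1 chr19:8661941-8662160 (upstream, no core).
Chrna1: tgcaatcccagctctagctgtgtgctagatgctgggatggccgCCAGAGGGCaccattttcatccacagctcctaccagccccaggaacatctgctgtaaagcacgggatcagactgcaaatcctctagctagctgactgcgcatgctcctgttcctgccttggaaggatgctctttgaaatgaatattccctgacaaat
Htr2a: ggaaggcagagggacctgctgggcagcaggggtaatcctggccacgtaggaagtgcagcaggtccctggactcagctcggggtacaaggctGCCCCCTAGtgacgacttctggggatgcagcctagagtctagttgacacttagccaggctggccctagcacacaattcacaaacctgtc
Htr1b: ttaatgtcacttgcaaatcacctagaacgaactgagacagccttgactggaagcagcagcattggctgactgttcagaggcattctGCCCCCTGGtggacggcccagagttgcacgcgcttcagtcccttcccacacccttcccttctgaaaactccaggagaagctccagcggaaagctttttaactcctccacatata
Chrm1: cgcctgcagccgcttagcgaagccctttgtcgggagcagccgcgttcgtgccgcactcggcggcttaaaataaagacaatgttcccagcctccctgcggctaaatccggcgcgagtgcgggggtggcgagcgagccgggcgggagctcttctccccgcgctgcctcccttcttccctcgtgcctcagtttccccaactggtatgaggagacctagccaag

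A further word, the RE1 pair, was more frequent at the receptor genes than at all open sites. RE1 is the element bound by REST, a repressor that keeps neuronal genes silent outside neurons; the pair searched was CAGCACC, 2 to 3 bases of any kind, then GGACAG, on both strands. In the 300 bases around the strongest promoter peak it was present in both libraries in 3 of 42 open receptor genes (Hrh3, Chrnb2 and Htr1a; 7.14%), against 0.116% of 14628 genes, that is 17 genes in all. In the 250 bases before to 50 after the start instead, it was present in 1 of the 42, against 0.082% of all genes. A looser RE1 consensus, added after the data were seen, was present in 2 of the 42 (Chrnb2 and Htr1a), against 0.164%, and in the window at the start it was in 0 of the 42, against 0.123%. Over all peaks in the gene windows, the pair was present in 6 of 341 in replicate 1 and 5 of 352 in replicate 2 (1.76% and 1.42%), against 0.0896% and 0.0733% of all peaks. The pair, like the members and the other words, was chosen with earlier results of these data known. The counts are small, and REST binding was not measured here.

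The sites with the pair belonged to 6 receptor genes. At Hrh3 the site is the promoter itself (1.82 in replicate 1 and 1.19 in replicate 2). At Chrnb2 the pair lies in the 5′ UTR of the first exon, so only 29 bases around it are shown (1.24 and 0.817). At Htr1a the site is centred at -858 bp from the start (1.76 and 1.42). At Drd2 it is a weaker peak 596 bp past the start, outside annotated exons (0.374 and 0.326). At Chrm4 it is centred at -5798 bp from the GENCODE start (0.796 and 0.829). At Drd3 the peak was found in replicate 1 alone (0.279). A footprint, a short stretch protected from DNase I, overlapped the pair in both libraries at Drd2, in replicate 1 alone at Chrm4 and Chrnb2, in replicate 2 alone at Htr1a, in neither at Hrh3, and not in replicate 1 at Drd3. The sequences are given in the orientation in which the pair, in capitals, reads CAGCACC first, which is the plus strand of mm10 for Hrh3 (chr2:180104516-180104650) and Drd3 (chr16:43753867-43754001) and the minus strand for Chrnb2 (chr3:89764451-89764479), Htr1a (chr13:105442729-105442863), Drd2 (chr9:49341140-49341274) and Chrm4 (chr2:91921277-91921411).
Hrh3: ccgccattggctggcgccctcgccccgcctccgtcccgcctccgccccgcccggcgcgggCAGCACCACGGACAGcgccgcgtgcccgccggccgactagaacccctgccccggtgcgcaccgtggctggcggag
Chrnb2: gcggcttCAGCACCACGGACAGcgctccg
Htr1a: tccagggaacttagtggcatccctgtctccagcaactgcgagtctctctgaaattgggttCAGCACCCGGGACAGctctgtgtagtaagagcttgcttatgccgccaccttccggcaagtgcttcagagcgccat
Drd2: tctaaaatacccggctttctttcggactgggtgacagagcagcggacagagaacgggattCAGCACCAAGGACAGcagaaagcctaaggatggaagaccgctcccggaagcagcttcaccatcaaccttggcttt
Chrm4: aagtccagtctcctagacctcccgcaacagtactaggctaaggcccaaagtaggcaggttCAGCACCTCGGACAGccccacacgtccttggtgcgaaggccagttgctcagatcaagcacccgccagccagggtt
Drd3: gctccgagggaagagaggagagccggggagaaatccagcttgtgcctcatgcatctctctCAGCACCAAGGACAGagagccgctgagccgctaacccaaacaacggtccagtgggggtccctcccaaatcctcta

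The other words searched were near their shares among all open promoters or rarer. The GC box GGGCGG was present in both libraries in 23 of 42 receptor promoters (54.8%), against 62.4%. The E-box CAGATG, a word of neuronal basic helix-loop-helix factors, was present in 5 (11.9%; Adra2b, Chrna9, Chrna7, Htr3a and Chrm1), against 9.6%. The AP-1 word TGANTCA was present in 2 (4.76%; Chrna9 and Hrh1), against 3.71%. The cyclic AMP response element TGACGTCA was present in 0 of 42, against 3.69%. The AP-1 and CRE counts were too small to read against these shares.

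Around the genes, the number of open sites was close to that of other genes. A receptor gene had a median of 5 peaks in its window in both libraries, against 4 for all protein-coding genes, and per 100 kb the medians were 10.7 and 9.79, against 8.87 and 8.96. Chrm3, the longest of the genes, had 26 peaks in replicate 1 and 41 in replicate 2 in its window of 505 kb. Next came Hrh1 (15 and 11), Adra1b (12 and 14), Oprm1 (13 and 13) and Chrm4 (8 and 18), then Adra1a (14 and 10), Chrm2 (14 and 9) and Hrh2 (10 and 10). Chrm4 reached its count in a window of only 21.4 kb, but 4 of the sites in it lie inside Mdk and 1 inside Dgkz, so they cannot be assigned to Chrm4 alone. Its count and that of Chrm3 differed most between the libraries, and 7 of the Chrm4 sites and 22 of the Chrm3 sites were found in both. Chrna6 and Chrna10 had no peak in either library, and Htr2b, Drd5 and Oprk1 had 1 each in both.

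**Figure D5:**
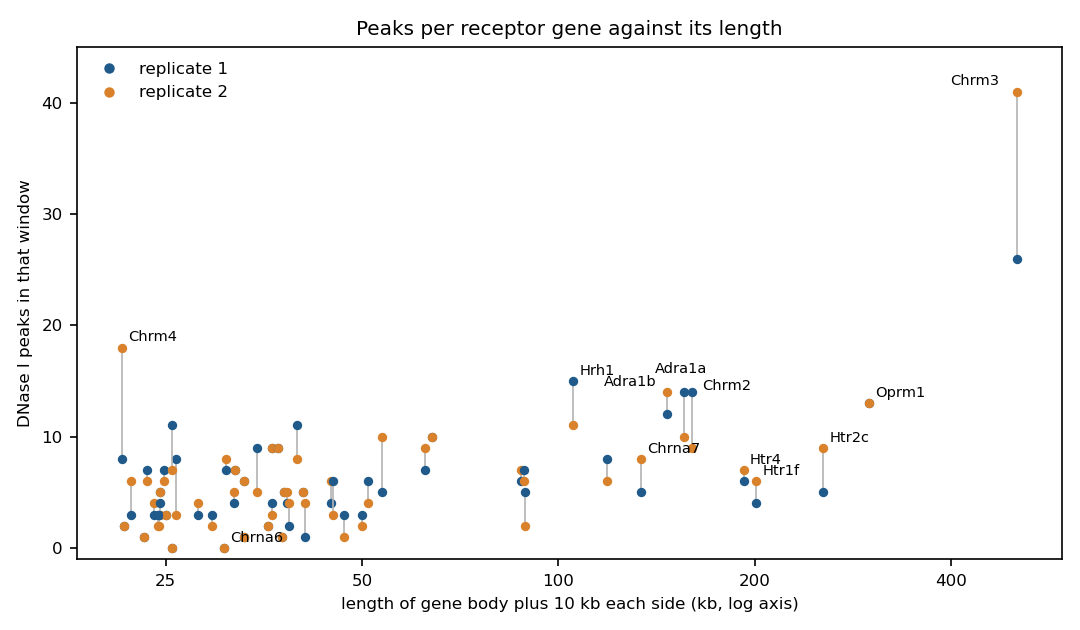
Number of DNase I peaks in the gene window (body with 10 kb added at either end) against the length of that window (log axis) for the 57 receptor genes, with replicate 1 and replicate 2 joined by a line. Chrm3 (26 and 41) is highest, and Chrm4 (8 and 18) is high for a window of 21.4 kb.

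The peaks of the receptor genes were found in both libraries about as often as other peaks. Of the 341 peaks of replicate 1, 78.9% shared at least 1 bp with a peak of the other library, as did 75% of the 352 peaks of replicate 2, against 78.7% and 76.3% of all peaks. Their median signal, 0.559 and 0.623, was near that of all peaks, 0.549 and 0.663. The receptor genes were thus lower than other genes at the strongest promoter peak (1.03 and 1.07 against 3.62 and 4.04), while the median over all their peaks was alike. Of their promoter peaks, 79.1% in replicate 1 and 85.1% in replicate 2 held at least 1 footprint, against 82.9% and 83.1% of all promoter peaks.

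Between the libraries the receptor promoters had like signals on the median. The median log2 ratio of replicate 1 over replicate 2 was -0.01 over the 42 genes (SD 0.36 over genes) and -0.22 over all genes open in both. The highest ratios were 0.66 for Htr7, 0.62 for Htr2c and 0.61 for Hrh3, with counting errors of 0.21, 0.22 and 0.13 on the same log2 scale if a step is 1 read. The lowest were -0.75 for Chrna3, -0.69 for Chrnb1 and -0.53 for Htr3a, with counting errors of 0.24, 0.07 and 0.14. The Chrnb1 promoter, the highest of all, had the smallest counting error of the 6. With 1 library on each side, these ratios have no replicate check.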

How the data were processed

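DNase-seq was deposited for 2 libraries of 1 group. Per the file headers and notes, the authors made every file from the mm10 alignments of 1 library, without pooling; which aligner and callers they ran is not given in the sources used here. The authors' deposited signal per peak is the highest cleavage density in the peak, scaled to depth. The deposited interval files give a q-value (false discovery rate) and list only values up to 0.05. The score of the deposited footprints was constant, so only their intervals were used. The more inclusive of both peak lists was the main one.

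Gene models were GENCODE M21 and sequence GRCm38, which mm10 names, on 21 chromosomes; RefSeq promoters were used for starts. Promoters were 1000 bp on each side of any start, and gene windows the body plus 10 kb by peak centre. The members, gene lists, words and rule for named genes were chosen with earlier results of these data known. That rule took the 3 highest promoters per family, genes with a peak in 1 library, the 8 with most peaks, the 6 strongest distal sites, genes with an RE1 pair and the 3 largest ratios each way. A few listed genes are left out of the text and of 1 plot, though every total includes them. Counts and medians are set beside those of all protein-coding genes, with no test. The CTCF core, its comparison peaks, the RE1 consensus and RefSeq starts were chosen after values were seen. The counting was tested on simulated data. Alternatives were the window, starts, peak list, flank, overlap, word window and each library alone. Python 3.11.15, NumPy 2.4.6, pandas 2.3.3, bedtools 2.31.1 and Matplotlib 3.10.9 were used.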

Additional observations from a re-analysis of the deposited data

How the results depend on the processing

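The count of receptor genes open in both libraries stayed within 1.5 times of 42 under every setting tried (34 with the stricter peak list, 42 to 46 with 1 library left out). The stricter list left 2 dopamine and 3 nicotinic receptor genes. The median promoter signal of 1.05 became 0.902 with a 500 bp window, 1.13 with 2500 bp or without peaks near another coding start, 1.21 from the 5′ end alone and 1.35 with the stricter list, and 0.933 to 1.07 with 1 library; all lie under the medians of all genes in the main setting. Peaks summed over genes (350, mean of libraries) became 739.5 with a 50 kb flank, 200.5 with the stricter list and 210 over 1000 bp from any start. The median per gene became 3 with no flank or away from starts and 11.5 with 50 kb; the median per 100 kb (10.2) became 8.60 with 50 kb, 5.69 with the stricter list, 5.13 away from starts and 8.14 without peaks in another coding gene, and 9.79 to 10.7 with 1 library. The percent of peaks shared (76.9%) became 70.9% at 50% overlap, 73.6% with the stricter list and 92.4% for peaks above the median signal; it has no value with 1 library. Footprints were in 82.1% of promoter peaks, 87.6% with the stricter list and 79.1% to 85.1% with 1 library. In the 250 bases before to 50 after the start, the RE1 pair was in 1 gene, AP-1 in 1 and the E-box in 3. Apart from the settings with fewer peaks or libraries, the cause was not tested. No paired analysis was possible because the labels gave 1 group.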
